A study of Neurospora crassa with 10 samples.

Results

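In the corrected Neurospora crassa assembly nc14, 53 of the 9730 annotated protein-coding genes stood alone, with a stretch of at least 5000 bp free of any annotated gene on their left and on their right. Each gene was counted from the outermost base on one side to that on the other, all transcripts included, and the 2230 protein-coding genes that overlap another gene, as well as the 13 that are the first or last gene of a Linkage Group (LG), were left out; 1 gene was both. The members were therefore chosen by the lengths of the intervals beside them, and those lengths are given below as a description. The remaining 9677 protein-coding genes served as the comparison. They comprise 962 genes with 1 such interval and 8715 genes with none.

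The annotation accompanies an in situ Hi-C study of the wild type strains N150 and N3752, both sampled as germinated conidia in an asexual, unsynchronized stage. The 10 datasets of the series hold 2 double digests with DpnII and MseI, 4 DpnII and 2 MseI libraries, and 1 merged dataset for each enzyme. By their titles, the DpnII libraries had 8, 15 and 23 PCR cycles in N150 and 8 in N3752, and both MseI libraries had 8. The paper set the DpnII data of 15 and 23 cycles aside because AT-rich DNA was depleted in them. No strain carried a mutation named in the labels, and no library was given an untreated or treated counterpart. The placement of supercontigs in nc14 was guided by the MseI data, but the annotation has no value for any library, so the counts and lengths below have no replicate error. Genes of 1 annotation are not replicates of each other, and no test was run over them; the quartiles, the 7 LGs and the genes with 1 long interval show how far each difference holds.

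Filamentous fungi pack most of their genes closely, and the space between neighboring genes is usually short. In N. crassa, long gene-poor stretches are typically AT-rich, carry trimethylation of lysine 9 on histone H3, and are found at centromeres, near chromosome ends and as islands along the arms. A gene beside such a stretch on both sides has no close neighbor whose promoter or terminator it could share. A protein-coding gene model consists of exons, the coding sequence (CDS) within them, and the untranslated regions (UTRs) at the 5′ and 3′ end of the transcript, which are annotated mainly from sequenced transcripts.

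The intervals that defined the isolated genes were far longer than is usual in this genome. Across the 7 LGs, the 8706 gene-free intervals had a median of 776 bp, and 533 of them reached 5000 bp. Isolated genes bordered 103 of these 533 intervals (19.3%), which together span 2.77 of the 17.8 Mb free of genes (15.6%). The shorter interval of an isolated gene had a median of 7169 bp (5040 to 130263 bp) and the longer interval a median of 13831 bp (5454 to 321175 bp). In 15 of the 53 genes both intervals reached 10000 bp, and in 14 the shorter interval was under 6000 bp. The 5′ interval was the longer one in 31 genes and the 3′ interval in 22. The other genes were not counted in this way, so the split is a description and no trait of isolated genes.

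Just inside the limit were NCU03253 on LG I, NCU03449 on LG II and NCU04850 on LG VI, whose shorter intervals were 5040, 5045 and 5048 bp. Just outside were NCU04847 and NCU04848 on LG VI, which share an interval of 4954 bp, and NCU03701 on LG V with a shorter interval of 4870 bp. The last 3 genes are thus counted among the others although they differ little from the first 3 in this respect.

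The most isolated gene by its shorter interval was NCU05742 (LG III, 813119 to 813977, minus strand), with 130263 bp free of genes on its left and 151473 bp on its right. NCU04974 (LG IV, 994038 to 994787, plus strand) had 119587 and 93783 bp, NCU08585 (LG I, 3826345 to 3826647, minus strand) had 84827 and 152736 bp, and NCU16528 (LG II, 1152277 to 1154521, minus strand) had 59401 and 211497 bp. In these 4 genes alone both intervals reached 50000 bp, and none of the 4 has an annotated UTR. Their coding lengths are 309, 381, 303 and 2103 bp, so NCU16528, with 700 codons, is the only long one among them. Of the 7 genes with both intervals of at least 20000 bp, the same 4 lacked a UTR. At 10000 bp it was 5 of 15, and over all isolated genes 16 of 53. In the earlier assembly NC12, RefSeq lists a tRNA pseudogene on the left of NCU05742, and a tRNA gene and a tRNA pseudogene on the right of NCU04974. The next in order were NCU10073 on LG I (30528 and 52470 bp), NCU09360 on LG I (42557 and 23769 bp), NCU10069 on LG I (20756 and 22254 bp) and NCU10077 on LG V (42367 and 15504 bp), all with an annotated 5′ and 3′ UTR. None of these 8 genes has a symbol of its own in RefSeq, and their functions are not given in the tables used here.

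**Figure D1:**
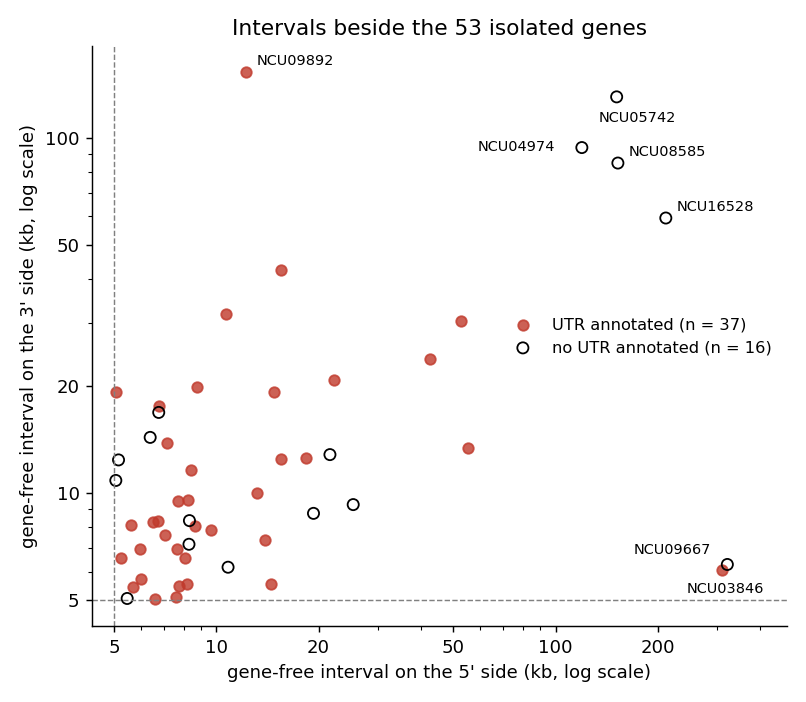
Gene-free interval on the 5′ side (x axis) and on the 3′ side (y axis) of each of the 53 isolated genes, in kb on log axes, with filled points for the 37 genes with an annotated UTR and open points for the 16 without; the dashed lines mark the limit of 5 kb. The 4 genes with both intervals over 50 kb (NCU05742, NCU04974, NCU08585 and NCU16528) are all open points, and NCU09667 and NCU03846 pair an interval of over 300 kb with one close to the limit.

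Very short coding sequences were frequent among the isolated genes, while the upper part of their length range was close to that of genes elsewhere. The coding sequence, stop codon included, was under 450 bp in 20 of the 53 isolated genes (37.7%), against 11% of all other protein-coding genes (a limit set after the lengths were seen). Their median coding length was 900 bp (quartiles 339 and 1764 bp), against 1269 bp in all other protein-coding genes (quartiles 756 and 1944 bp). The upper quartiles thus lay much closer together than the lower ones. Set against the quartiles of the other genes, 25 isolated genes (47.2%) had a coding length of at most 756 bp, 4 lay above that up to the median, 16 between the median and the upper quartile and 8 above it. The 20 short isolated genes had a median of 313.5 bp, against 339 bp in short genes elsewhere, and the 33 longer ones had a median of 1533 bp, against 1395 bp.

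Genes with a long interval on 1 side alone were close in median length to those with none. Their median coding length was 1263 bp, against 1269 bp in genes with no long interval, and 144 of 962 (15%) had a coding length under 450 bp, against 921 of 8715 (10.6%). Coding lengths over 3000 bp were found in 3 isolated genes (5.66%), and in 9.16% of all other protein-coding genes.

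The shortest isolated genes were NCU00099 (LG III, 165 bp of coding sequence and 54 codons), NCU10069 (LG I, 195 bp), NCU11216 (LG VI, 225 bp), NCU09667 (LG V, 255 bp) and NCU03448 (LG II, 279 bp). They differ widely in the rest of the transcript. NCU00099 and NCU09667 have no annotated UTR, whereas NCU11216 carries 1196 bp of 5′ UTR and 1053 bp of 3′ UTR around its 74 codons. NCU10069 has 448 and 623 bp of 5′ and 3′ UTR, and NCU03448 has 148 and 82 bp. The longest were NCU02184 (chit-1, named for a chitinase, an enzyme that cleaves the cell wall polymer chitin) with 4305 bp, NCU04859 (nst-4, of the sirtuin family of NAD-dependent deacetylases) with 3984 bp, NCU05086 with 3651 bp in 1 exon and no UTR, NCU00017 with 2430 bp and NCU10073 with 2418 bp.

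**Figure D2:**
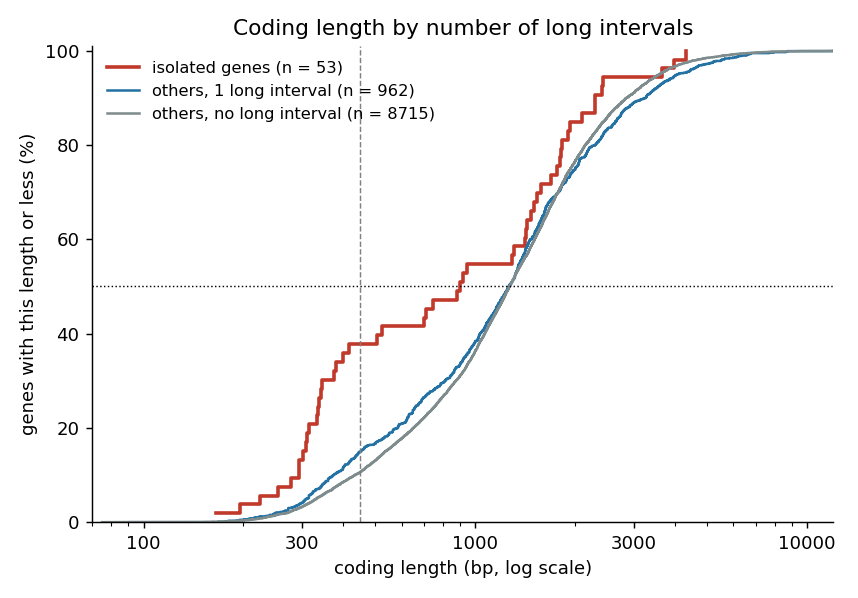
Cumulative share of genes (y axis, in %) up to a given coding length (x axis, in bp on a log scale) for the 53 isolated genes, the 962 other genes with 1 long interval and the 8715 with none; the dashed line marks 450 bp and the dotted line 50% of genes. The curve of the isolated genes stands above both other curves at short lengths, with 37.7% of genes under 450 bp, and comes closer to them at greater lengths, with upper quartiles of 1764 bp in the isolated genes and 1944 bp in all others.

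The median coding length rested on which genes were taken, whereas the share of short genes did so less. With a limit of 7500 bp on both sides, the 25 remaining genes had a median of 1293 bp, against 1269 bp in the others, and with a limit of 10000 bp the 15 remaining had a median of 1470 bp. When genes under 300 bp of coding length were removed from the annotation, the medians were 1293 bp in isolated genes and 1305 bp in the others. The short genes made up 28% and 33.3% of these smaller sets, and 27.9% of the 201 genes taken in by a limit of 3000 bp. By LG, the median of the isolated genes was the lower one on 4 of 7, namely LG II (658.5 against 1276.5 bp), LG III (321 against 1263 bp), LG IV (399 against 1287 bp) and LG V (726 against 1230 bp). It was the higher one on LG I (1609.5 against 1284 bp), on LG VI (1305 against 1257 bp) and in the 1 isolated gene of LG VII, NCU06864 (1932 against 1273.5 bp).

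The number of exons differed less than the coding length. Isolated genes had a median of 2 exons, as did the others, although the median of the isolated genes was 3 under 6 of 19 alternative settings, among them limits of 3000 and 7500 bp, against 2 in the others. Of the 53, 8 (15.1%) had a single exon, against 18.5% of all other protein-coding genes. A coding sequence in 1 piece was found in 11 isolated genes (20.8%, against 22.2%), and 3 or more exons in 26 (49.1%, against 47.5%). The single-exon genes were NCU08585, NCU03448, NCU01835, NCU08807, NCU06864, NCU03250, NCU09337 and NCU05086, and their coding lengths ranged widely, with 279 bp in NCU03448 and 3651 bp in NCU05086. Most exons were found in NCU04850 on LG VI, with 7 exons over 2304 bp of coding sequence, followed by NCU03449, NCU04710 and NCU10702 with 5 each.

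Introns were longer in sum at the median of the isolated genes. They summed to a median of 198 bp per transcript (quartiles 69 and 386 bp), against 131 bp in all other protein-coding genes (quartiles 62 and 264 bp). In 11 of the 53 (20.8%) the introns together were longer than the coding sequence (a comparison added after the values were seen), against 4.38% of all other protein-coding genes, 5.82% of those with 1 long interval and 4.22% of those with none. NCU09145 on LG III, for example, has 639 bp of intron for 294 bp of coding sequence, NCU05742 has 550 bp for 309 bp in 4 exons, and NCU10702 on LG I has 734 bp for 507 bp in 5 exons. The other 8 are NCU03520, NCU00343, NCU07250, NCU07009, NCU09667, NCU03583, NCU04719 and NCU11216, and all 11 have at most 525 bp of coding sequence. Among genes with a coding length under 450 bp and no UTR, introns exceeded the coding sequence in 6 of 11 isolated genes (54.5%) and in 114 of 376 others (30.3%). Among genes under 450 bp with a UTR, this was so in 3 of 9 isolated genes (33.3%) and in 23.9% of 689 others. Among genes of 450 bp or more, it was so in 1 of 5 isolated genes without a UTR, against 5.29% of 1266 others. With a UTR, it was 1 of 28 isolated genes and 1.06% of 7346 others.

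**Figure D3:**
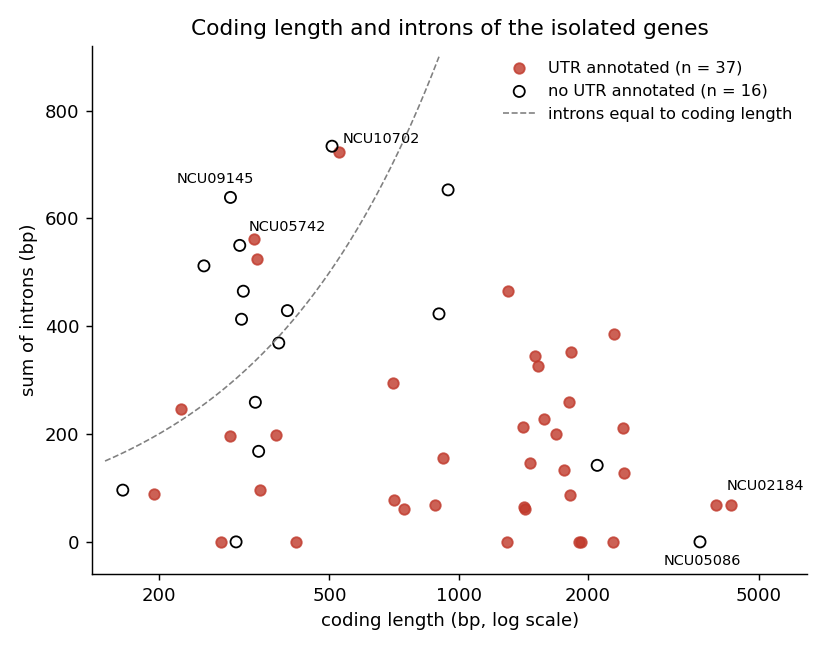
Sum of the introns of the transcript (y axis, in bp) against coding length (x axis, in bp on a log scale) for the 53 isolated genes, filled where a UTR is annotated and open where none is; along the dashed curve the introns are as long as the coding sequence. The 11 genes above the curve have at most 525 bp of coding sequence, and the long genes NCU02184 (chit-1) and NCU05086 lie near or at 0 bp of intron.

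UTRs were annotated less often in isolated genes. At least 1 bp of UTR was found in 37 of the 53 (69.8%), against 83% of all other protein-coding genes, 79% of those with 1 long interval and 83.5% of those with none. The others include the overlapping genes, which the rule bars from the isolated set. Among the 7435 others that overlap none and are not the first or last of an LG, the share was 79.8%. Both a 5′ and a 3′ UTR were found in 32 (60.4%), against 75.4% of all other protein-coding genes. The share was lower in the isolated genes on 5 of the 7 LGs, and it was lowest on LG III with 2 of 6 genes (33.3%, against 80.6% of the others there) and on LG II with 4 of 8 (50.0%, against 83.6%). It was 66.7% on LG IV (against 82.3%), and the values were close on LG I (83.3% against 86.4%) and LG VI (77.8% against 80.4%). On LG V it was 87.5% against 83.7%, and the 1 isolated gene of LG VII has a UTR. The span of a gene includes its UTRs, so that a gene or a neighbor without them appears to lie further away. When the intervals were measured between coding sequences, the 53 genes and 28 more qualified, and the share with a UTR was 76.5% of 81, against 83.0%.

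The isolated genes without a UTR were mostly the short ones. Of the 20 with a coding length under 450 bp, 11 had no UTR (55%), against 35.3% of the 1065 short genes elsewhere, 56.2% of the 144 short genes with 1 long interval and 32.0% of the 921 with none. Of the 33 longer isolated genes, 5 had no UTR, so that 84.8% had one, against 85.3% of the 8612 longer genes elsewhere. Those 5 were NCU10702 (507 bp), NCU05448 (900 bp), NCU03449 (945 bp), NCU16528 (2103 bp) and NCU05086 (3651 bp). Short models without a UTR thus made up 20.8% of the isolated genes, 8.42% of the genes with 1 long interval and 3.38% of the genes with none.

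Where UTRs were annotated, they were about as long as elsewhere or somewhat longer. Their sum had a median of 747 bp in the 37 isolated genes (quartiles 381 and 1260 bp), against 691 bp in the 8035 others (quartiles 432 and 1036.5 bp) and 838 bp in the 760 genes with 1 long interval. The 5′ UTR had a median of 374 bp in the 34 isolated genes that have one, against 314 bp, and the 3′ UTR a median of 484 bp in 35 genes, against 348 bp. The longest belonged to NCU04830 on LG VI, with 1885 bp of 5′ UTR and 1132 bp of 3′ UTR for 1305 bp of coding sequence. NCU11216 followed with 2249 bp in all, NCU00911 on LG I with 2014 bp, and NCU04990 (fi) on LG IV with 1904 bp. An intron within a UTR was annotated in 8 isolated genes (15.1%, against 12.1%), which are NCU02092, NCU10073, NCU04867, NCU16967, NCU07117, NCU04710, NCU03846 and NCU11216. This difference in UTR length depended on the genes taken: without LG VI the median was 651.5 bp in isolated genes, against 693 bp, and with a limit of 7500 bp it was 1092 bp, against 690 bp.

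**Figure D4:**
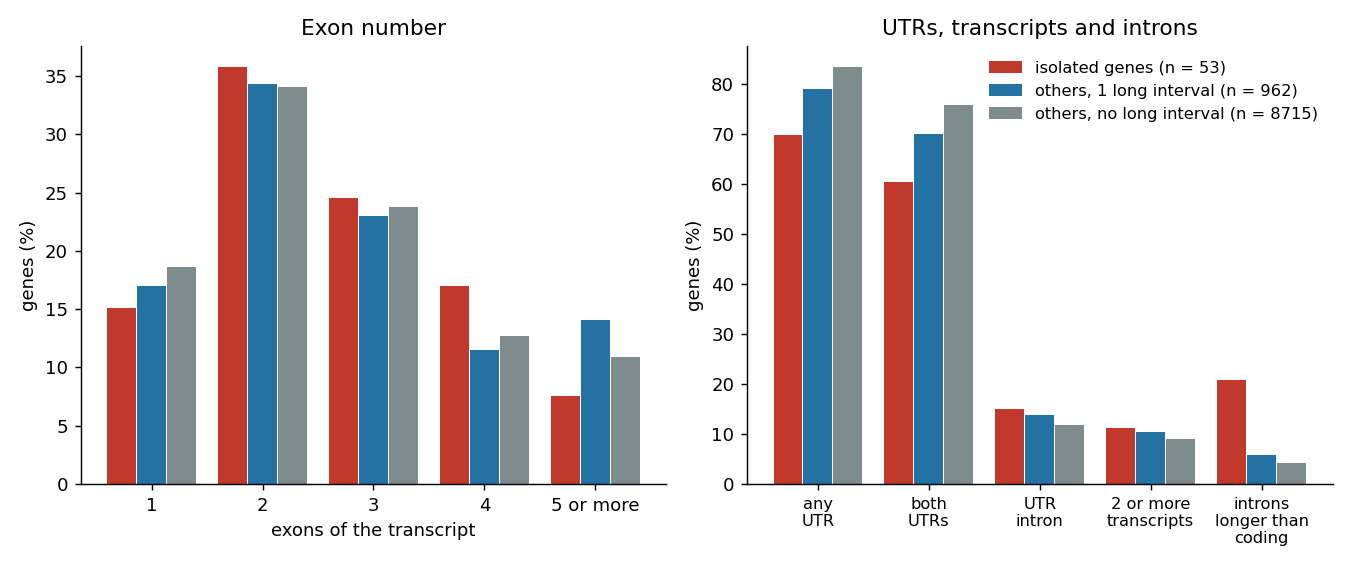
Share of genes (y axes, in %) by exon number (left) and with annotated UTRs, a UTR intron, 2 or more transcripts and introns longer in sum than the coding sequence (right), for the 53 isolated genes, the 962 other genes with 1 long interval and the 8715 with none. A single exon is found in 15.1%, 17% and 18.6% of genes, any UTR is annotated in 69.8%, 79% and 83.5% of genes, and introns exceed the coding sequence in 20.8%, 5.82% and 4.22%.

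Alternative transcripts were annotated in 6 of the 53 isolated genes (11.3%), against 9.22% of all other protein-coding genes. Each of the 6 has 2 transcripts and none has 3 or more, which 1.35% of the others have. In NCU03846 and NCU07117 both transcripts hold the same coding length, 1422 and 1581 bp, and differ in the UTRs. The 5′ UTR of NCU03846, for example, is 272 bp in one transcript and 160 bp in the other, and its 3′ UTR 1045 and 514 bp. In the other 4 the coding length differs, with 4305 and 4101 bp in NCU02184 (chit-1), 1806 and 1704 bp in NCU08847, 1410 and 1401 bp in NCU01154 (sub-1), and 294 and 225 bp in NCU03418. Among the 892 other genes with several transcripts, 48% had 1 coding length throughout. The share with alternative transcripts was lower than that of the others under a limit of 7500 bp (8% against 9.23%), and none of the 15 genes kept by a limit of 10000 bp has more than 1 transcript.

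Of the isolated genes, 6 have a RefSeq symbol other than the NCU number (11.3%), against 11.5% of all other protein-coding genes. All 6 have UTRs at both ends and a coding length of at least 1293 bp. NCU08807 (cre-1, the transcription factor of carbon catabolite repression) lies on LG IV from 5176440 to 5178927 with 11567 bp free of genes on its left and 8421 bp on its right, and its 1293 bp of coding sequence fill 1 exon. NCU01154 (sub-1, a GATA-type transcription factor with a role in sexual development and light responses) lies on LG V from 3443041 to 3446000 between intervals of 8657 and 8048 bp. NCU09337 (Prm1, a membrane protein of cell fusion during mating) lies on LG II from 4147012 to 4150433 between intervals of 9508 and 7726 bp, and has 2295 bp of coding sequence in 1 exon. NCU02184 (chit-1) lies on LG I from 937786 to 943577 between intervals of 7033 and 7620 bp. NCU04859 (nst-4) lies on LG IV from 497945 to 502912, with 8167 bp on its left and 5533 bp on its right. NCU04990 (fi) also lies on LG IV, from 1118725 to 1122244, with 13355 bp on its left and 55130 bp on its right. Both intervals reach 10000 bp only in the last of the 6. Each of the other 5 has a tRNA, rRNA or other non-coding RNA gene of NC12 in 1 of its intervals, as described below. The share of other genes with such an interval was not counted.

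Isolated genes were found on every LG, in unequal numbers. LG I has 12 (0.511% of its protein-coding genes), LG IV and LG VI 9 each (0.606% and 0.911%), LG II and LG V 8 each (0.778% and 0.506%), LG III 6 (0.478%) and LG VII 1 (0.0955%). Within 500 kb of the longest gene-free interval of their LG lay 17 of the 53 (32.1%), against 17.7% of all other protein-coding genes. Of these, 5 border that interval itself, namely NCU16528, NCU05742, NCU04974, NCU09667 and NCU03846. Close to the ends of the LGs they were not more frequent, with 2 of 53 within 100 kb (3.77%, against 3.73%) and 4 within 300 kb (7.55%, against 10.7%). Over the whole LGs, however, the isolated genes lay nearer to an end, at a median of 1065 kb (quartiles 555 and 2221 kb), against 1500 kb in all other protein-coding genes (quartiles 720 and 2262 kb). These distances are pooled over LGs of unequal length. LG VI and LG II, with the highest shares of isolated genes, are among the shortest (last gene ending at 4162424 and 4470618 bp). Distances were not compared within each LG. NCU10070, 21.2 kb from the last gene end of LG IV, and NCU08777, 95.5 kb from that of LG III, lay nearest to an end. Place and interval length are tied by the rule, so these counts describe where long intervals are.

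Short coding sequences were not limited to the surroundings of the longest intervals. Within 500 kb of them, 7 of 17 isolated genes had a coding length under 450 bp (41.2%), against 12.1% of 1711 others. Among the genes that lay neither there nor within 300 kb of an end, it was 11 of 32 (34.4%), against 10.8% of 6931 others. The median coding length, however, was 525 bp in the 17 and 1299 bp in the 32, against 1239 and 1281 bp in the others at the same places. A UTR was annotated in 10 of the 17 (58.8%, against 81.0%) and in 25 of the 32 (78.1%, against 84.9%). The 32 do not all lie away from very long intervals. Among them is NCU08585 on LG I, between intervals of 84827 and 152736 bp. NCU09360, NCU09892 and NCU10073 on LG I are also among the 32, and these 4 genes start between 3638094 and 4046880. The paper places the centromere of LG I in or near this part, so the 32 mix genes near that centromere with genes of the arms. The longest interval of LG I (257275 bp) lies apart from it. Its place is about that of a heterochromatic region that the paper enlarged by inserting supercontigs.

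**Figure D5:**
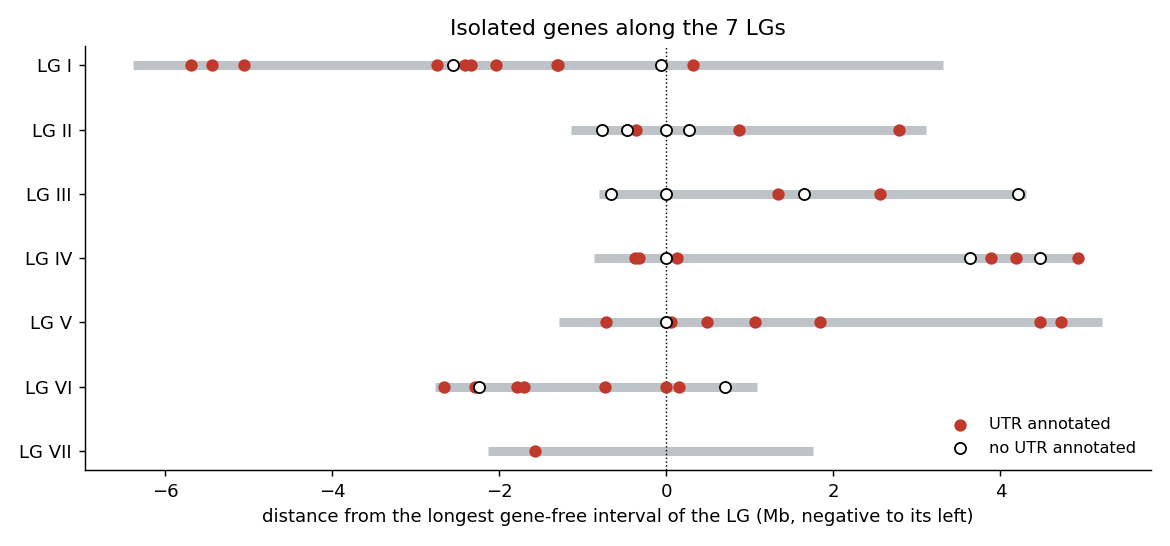
Isolated genes (points) along the 7 LGs (grey bars, drawn to the outermost genes), placed by their distance in Mb from the longest gene-free interval of the LG (dotted line at 0, negative to its left), filled where a UTR is annotated and open where none is. The genes lie along whole arms, 5 border the longest interval of their LG, and LG VII has a single isolated gene.

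In 3 places 2 isolated genes are direct neighbors, and no run was longer. NCU08585 and NCU09892 face each other across 152736 bp of LG I, NCU03250 and NCU03253 across 6567 bp of LG I, and NCU03449 and NCU03448 across 5454 bp of LG II. Both genes of each pair are read from the same strand. Within the pairs the gene models differ, with 303 bp of coding sequence in NCU08585 and 1764 bp in NCU09892, and with 945 bp over 5 exons in NCU03449 and 279 bp in the 1 exon of NCU03448.

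The minus strand holds 33 of the 53 isolated genes (62.3%), against 49.6% of all other protein-coding genes. Which strand is called minus is a convention of the assembly, so this split has no direction in the cell. Relative to its neighbors, the 5′ neighbor was read in the opposite direction in 23 of 53 isolated genes (43.4%), against 52.2% of the 7435 other genes that overlap none and are not the first or last of an LG. The 3′ neighbor was so in 21 (39.6%, against 44.3%), and both neighbors were read from the same strand as the gene in 19 (35.8%, against 26.4%).

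The intervals are free only of genes that the nc14 annotation lists. The paper also reports that many gaps remain in nc14. Unresolved sequence within the intervals was not assessed, so their lengths are those of the assembly. In the RefSeq table of the earlier assembly NC12, 22 of the 53 isolated genes have at least 1 gene between them and a neighbor that nc14 does not list, and for 51 both neighbors could be followed. The share among other genes, or among other long intervals, was not counted, so the 22 cannot be read as a trait of isolated genes. The 27 intervals concerned hold 16 tRNA genes, 5 tRNA pseudogenes, 4 rRNA genes and 14 genes of other non-coding RNAs. NCU08807 (cre-1), for example, has 2 tRNA genes, 1 rRNA gene and 1 other non-coding RNA gene on its left. With these 22 set aside, 31 isolated genes were left, among them the 2 (NCU00911 and NCU03846) with a neighbor that could not be followed. They had a median coding length of 1422 bp, against 1269 bp in the others, and 35.5% had a coding length under 450 bp, 77.4% had a UTR, and in 22.6% the introns exceeded the coding sequence. The 22 themselves had a median of 705 bp. The left neighbor of NCU00911 on LG I is NCU10889, one of 4 genes of LG I none of whose nc14 neighbors is a neighbor in NC12; leaving out the 4 kept all 53 members. All 53 gene models have the same span and the same number of transcripts in both annotations, and so do the 9676 other protein-coding genes listed in both, so RefSeq is no independent check of these models.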

How the data were processed

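The processed data are 1 gene annotation of assembly nc14 with 81158 records, whose values, as the authors deposited them, are start and end positions in bp without normalization, a unit other than counts or expression. The authors placed supercontigs guided by MseI Hi-C. Gene models were carried over to nc14 with a tool not given in the sources used here. There are 0 columns of single samples, so no depth or replicate error applies, and samples were grouped by enzyme from their labels alone. Hi-C reads were mapped with Bowtie2 2.3, per the submitters' processing notes.

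Gene-free intervals ran from the end of a gene to the start of the next annotated gene of any type. For each gene the transcript with the longest coding sequence was used (CDS records with the stop codon), UTRs were exon bases outside it, and introns were the gaps between exons. RefSeq (NC12) gave symbols, gene types, spans and neighbors, and all 53 members matched. NC12 positions set the order of genes there, and so which genes lie between neighbors. No interval length or distance given here was taken from NC12. No nucleotide or protein sequence was analysed here.

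The members, lists and comparisons were chosen with earlier results of these data known. Genes were named by a rule: the 8 with the longest shorter interval, 3 on either side of the limit, the 5 longest and 5 shortest coding lengths, the 3 with most exons, those with 3 or more transcripts (none), those with a symbol, and the longest run of neighbors; the rest, the limits of 450 bp, 3000 bp of coding length and 500 kb, and the comparison of introns with coding length, were chosen after their values were seen. Classes by product name and features of proteins and promoters were planned and not run, because the tables used here hold none. Python 3.11.15, numpy 2.4.6, pandas 2.3.3, scipy 1.17.1 and matplotlib 3.10.9 were used. On 100 simulated annotations of 300 genes, 600 of 600 planted isolated genes were found, with 0 false ones, and 30000 of 30000 gene structures were read as planted. The genes were planted by the same limit, on a single LG with a single transcript each, so this checks the code alone. It does not cover the choice of transcript, UTR introns or the neighbors in NC12.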

Additional observations from a re-analysis of the deposited data

How the results depend on the processing

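No paired analysis was possible because 1 annotation serves all libraries and none has values of its own. Of 164 values recomputed under 21 alternatives, 139 kept their direction and stayed within the 95% binomial interval of the isolated genes' own median or share (for the number of genes, within 1.5 times). The interval is wide at 53 genes, and staying within it does not show that a difference held its size. It is a yardstick only, since genes of 1 annotation are not replicates. Many alternatives could change little. Intervals to protein-coding genes alone, and leaving out genes that share no neighbor with NC12, returned the same 53 genes. The settings without 1 LG kept 41 to 52 of them. For the median exon number, equal in both sets (2), 12 of 19 alternatives gave equal medians and 7 a higher one in isolated genes, which was 3 in 6 of them. The number of isolated genes was 201, 25 and 15 with limits of 3000, 7500 and 10000 bp, 81 with intervals between coding sequences and 31 without genes that have an NC12 gene in an interval. The difference in median coding length (isolated minus others, -369 bp) became 24 bp at 7500 bp, 201 bp at 10000 bp and 153 bp without genes that have an NC12 gene in an interval, and it was -12 bp without coding lengths under 300 bp. The difference in UTR length (56 bp) became -86.5 bp without genes that have an NC12 gene in an interval and -41.5 bp without LG VI, and was larger at 402 bp with a limit of 7500 bp, 228 bp without LG III, 218 bp for UTRs of 50 bp or more and 202 bp between coding sequences. The difference in the share with 2 or more transcripts (2.10 percentage points) became -0.28, -1.23 and -9.24 points at limits of 3000, 7500 and 10000 bp, -0.30 without LG V, -0.35 without LG VI and -0.50 without coding lengths under 300 bp. Without coding lengths under 300 bp, 57 genes qualified, 46 of them shared, and the difference in the share under 450 bp was 16.55 points, against 26.7 points, since the shortest genes are removed by construction. For place, the difference was 0.043 points within 100 kb of an end and -3.15 points within 300 kb. For the other changes the cause was not tested. The shares with a UTR, with a single exon and with introns longer than the coding sequence kept their direction under each alternative run for them. The alternatives for the shares under 450 bp and of long introns, and the one without genes that share no neighbor with NC12, were chosen after seeing the data. With 53 members, 1 gene is 1.89 percentage points of a share.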
